A study of Homo sapiens with 6 samples.

Results

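A set of 49 genes of the chemical synapse was examined in HCT116 cells, a long-established line grown from a human colorectal carcinoma. The genes were taken from a list of vesicle release genes, visinin-like calcium sensors and glutamate receptors with their NETO subunits. The list was drawn up with earlier results of these data known. All 49 genes were measured, of 18417 genes in all. Each gene was represented by the probe set that carries its symbol alone and has the highest mean over the 6 arrays. The comparison is between 3 arrays of the parental line, with genotype given as parental, and 3 arrays of a mutant line derived from it, with genotype given as mutant with altered DNA methylation. Both were grown in McCoy's medium with serum and antibiotics, and no treatment, time point or passage is given. The mutated gene is not named in the labels, nor is it stated whether the mutant arrays come from 1 clone or several. The comparison addresses the effect of a gene mutation on expression, but effects of the mutation and other differences between the lines cannot be told apart.

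At a synapse, calcium entry is sensed by synaptotagmins on the vesicle, which act on the SNARE complex formed by a vesicle VAMP with syntaxin and SNAP25 on the plasma membrane, while complexins and RIM proteins set readiness for fusion. Released glutamate opens AMPA, kainate and NMDA receptors, and the NETO proteins are auxiliary subunits that slow the gating of kainate receptors. Visinin-like proteins are neuronal EF-hand calcium sensors, several of which move to membranes by a calcium-myristoyl switch. Related proteins of these families also serve regulated secretion and membrane traffic outside the nervous system, so single members can be transcribed in epithelial cells.

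Of the 49 genes, 6 were lower and 7 higher in the mutant at an adjusted p under 0.05, and 36 did not pass. Over all genes 11.3% were called lower, 14.6% higher and 25.9% in either direction, so the number of calls in the set was near the background. The counts given below for each family are to be read beside these shares. What stood out in size were single genes. VSNL1, NETO2 and SYT1 fell by 6.36, 6.07 and 5.01 on the log2 scale and GRIN2B fell by 2.69, while the largest increases were those of GRIK4 (0.89) and SYT13 (0.67). These 4 decreases and 2 increases are the called differences of at least 1.5-fold. Over all genes such decreases made up 3.88% and such increases 3.34%. The 3 largest decreases rank 3, 5 and 11 among the decreases of all genes, a description only, since the list was drawn up with these results known. The median difference of the 49 genes was -0.04 on the log2 scale, against 0.0034 over all genes. Values of the 2 groups did not overlap for 27 of the 49 genes, against 45.8% of all genes. The number of members higher in the mutant dropped from 7 to 4 without parental replicate 1, without parental replicate 2, without mutant replicate 2 or without mutant replicate 3.

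The promoter windows of the genes that fell most are shown first because the mutant line is described by its altered DNA methylation and CpG dinucleotides are where that mark is placed. The sequences are those of RefSeq, build GRCh38.p14, 300 bases long with most of them before an annotated start, written 5′ to 3′ on the gene's strand, with every CpG in capitals. VSNL1 has a pair of annotated starts on the plus strand of chromosome 2, at chr2:17539722-17540021 and chr2:17540446-17540745, NETO2 has 1 on the minus strand at chr16:47143896-47144195, and SYT1 has 1 on the plus strand at chr12:78864524-78864823.
VSNL1, upstream start: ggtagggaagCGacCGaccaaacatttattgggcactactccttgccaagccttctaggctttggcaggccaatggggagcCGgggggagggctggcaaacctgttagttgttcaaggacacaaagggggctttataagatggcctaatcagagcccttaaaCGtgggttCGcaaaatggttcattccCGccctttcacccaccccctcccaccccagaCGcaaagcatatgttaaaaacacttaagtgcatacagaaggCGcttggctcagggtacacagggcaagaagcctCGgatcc
VSNL1, downstream start: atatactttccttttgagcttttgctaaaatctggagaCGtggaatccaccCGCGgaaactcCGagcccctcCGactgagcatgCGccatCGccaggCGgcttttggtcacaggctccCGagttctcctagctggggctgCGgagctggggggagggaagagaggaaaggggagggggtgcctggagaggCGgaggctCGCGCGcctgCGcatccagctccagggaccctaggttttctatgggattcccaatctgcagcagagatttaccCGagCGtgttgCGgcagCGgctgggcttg
NETO2: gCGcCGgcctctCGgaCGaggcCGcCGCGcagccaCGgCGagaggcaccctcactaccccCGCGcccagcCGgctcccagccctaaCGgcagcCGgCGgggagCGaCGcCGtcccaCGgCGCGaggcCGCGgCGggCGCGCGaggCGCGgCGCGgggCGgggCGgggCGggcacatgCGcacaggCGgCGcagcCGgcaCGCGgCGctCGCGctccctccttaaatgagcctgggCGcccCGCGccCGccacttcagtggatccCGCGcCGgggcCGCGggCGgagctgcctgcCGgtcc
SYT1: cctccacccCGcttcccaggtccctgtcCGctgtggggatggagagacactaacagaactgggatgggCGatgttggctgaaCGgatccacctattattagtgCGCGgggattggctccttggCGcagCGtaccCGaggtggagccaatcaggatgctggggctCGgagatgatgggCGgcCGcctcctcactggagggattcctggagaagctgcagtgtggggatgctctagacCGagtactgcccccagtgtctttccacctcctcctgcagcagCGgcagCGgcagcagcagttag
The 4 windows differ widely in CpG content. The NETO2 window holds 54 CpG dinucleotides, the SYT1 window 15, and the VSNL1 windows 9 and 19. Over 35116 windows of the same length the median was 14, and over the 68 windows found for 40 of the 49 genes it was 23. The next largest decrease, GRIN2B, has windows with 22, 17 and 36 CpG, and GRIK4, which rose, has windows with 49 and 29. The methylation of these windows was not analysed here.

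Short motifs were searched in the same windows on both strands, and a match is a description of the letters only. The left block of RE1, the element bound by the neuronal gene repressor REST, has the letters TTCAGCACC and lay in 2 of the 68 windows (2.94%), those of GRIA2 and SYN1, against 0.376% of all windows. It was in none of the windows of VSNL1, NETO2, SYT1 or GRIN2B. The right block, GGACAG, was found in 16.2% of the set's windows and 20.5% of all windows. A GC box, GGGCGG, was found in 57.4% against 45.0%, and a TATA box, TATAAA, in 3 windows (4.41%) against 11.5%. The TATA matches were in windows of SYT16 and SV2B and in the upstream window of VSNL1. In VSNL1 the match lies on the strand opposite the gene, where the printed letters read TTTATA. The cyclic AMP response element, TGACGTCA, lay in 1 window, that of SYN1, or 1.47% against 1.85%. None of these motifs is contained in another.

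Among the synaptotagmins, 1 of 12 fell, 2 rose and 9 did not pass. SYT1 encodes the calcium sensor for fast synchronous transmitter release. Its probe set (7957338) read 11.27, 11.20 and 11.34 in the parental arrays and 6.32, 6.21 and 6.26 in the mutant arrays (log2). The groups are far apart, and the mutant arrays lie close together. The means were 11.27 ± 0.07 and 6.26 ± 0.05 (log2 ± SD, n = 3 each), a difference of -5.01 (limma adjusted p = 7.39e-07), or 32.1-fold.

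SYT13, an atypical synaptotagmin that does not bind calcium through its C2 domains, went the other way. Its values were 6.29, 6.23 and 6.07 in parental arrays and 6.88, 6.81 and 6.90 in mutant arrays, with no overlap. The means were 6.20 ± 0.11 and 6.86 ± 0.04 (log2 ± SD, n = 3 each), a rise of 0.67 (limma adjusted p = 0.00165). SYT12, another synaptotagmin with no calcium binding, rose by 0.38 (limma adjusted p = 0.0371), from 7.12 ± 0.17 to 7.50 ± 0.04 (log2 ± SD, n = 3 each). This call was lost without parental replicate 1 (limma adjusted p = 0.0533), parental replicate 2 (0.0953) or mutant replicate 1, 2 or 3 (0.104, 0.0844 and 0.108), and with the arrays shifted to a common median (0.0502).

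The remaining synaptotagmins moved little between the lines. Their differences ran from -0.15 (SYT4) to 0.12 (SYT11) on the log2 scale, and no 95% interval reached beyond -0.36 or 0.37. SYT7, the high-affinity sensor of slow and asynchronous release and of lysosome exocytosis, read 9.31, 9.24 and 9.31 in parental and 9.10, 9.16 and 9.18 in mutant arrays. The groups do not overlap, but the difference of -0.14 did not pass (limma adjusted p = 0.126). SYT2, another fast sensor of release, differed by -0.04 on its brighter probe set and by -0.23 on its other (limma adjusted p = 0.844 and 0.201); it is the one gene of the set with a further probe set.

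The synaptotagmin-like proteins, most of which are effectors of the secretory GTPase RAB27, had 0 of 4 called by limma, with 3 at an unadjusted p under 0.05. SYTL5 (-0.31), SYTL4 (-0.28) and SYTL2 (0.29) each had groups that did not overlap, with limma adjusted p-values of 0.0753, 0.055 and 0.14. SYTL1 differed by -0.02. SYTL5 passed in 3 of 15 alternatives, without parental replicate 3 (limma adjusted p = 0.048) among them, and SYTL4, a granuphilin known from insulin granules, passed in 4 of 17 alternatives. SYTL3, a further RAB27 effector outside the set, fell from 9.49 to 8.43 (limma adjusted p = 0.000628).

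**Figure D1:**
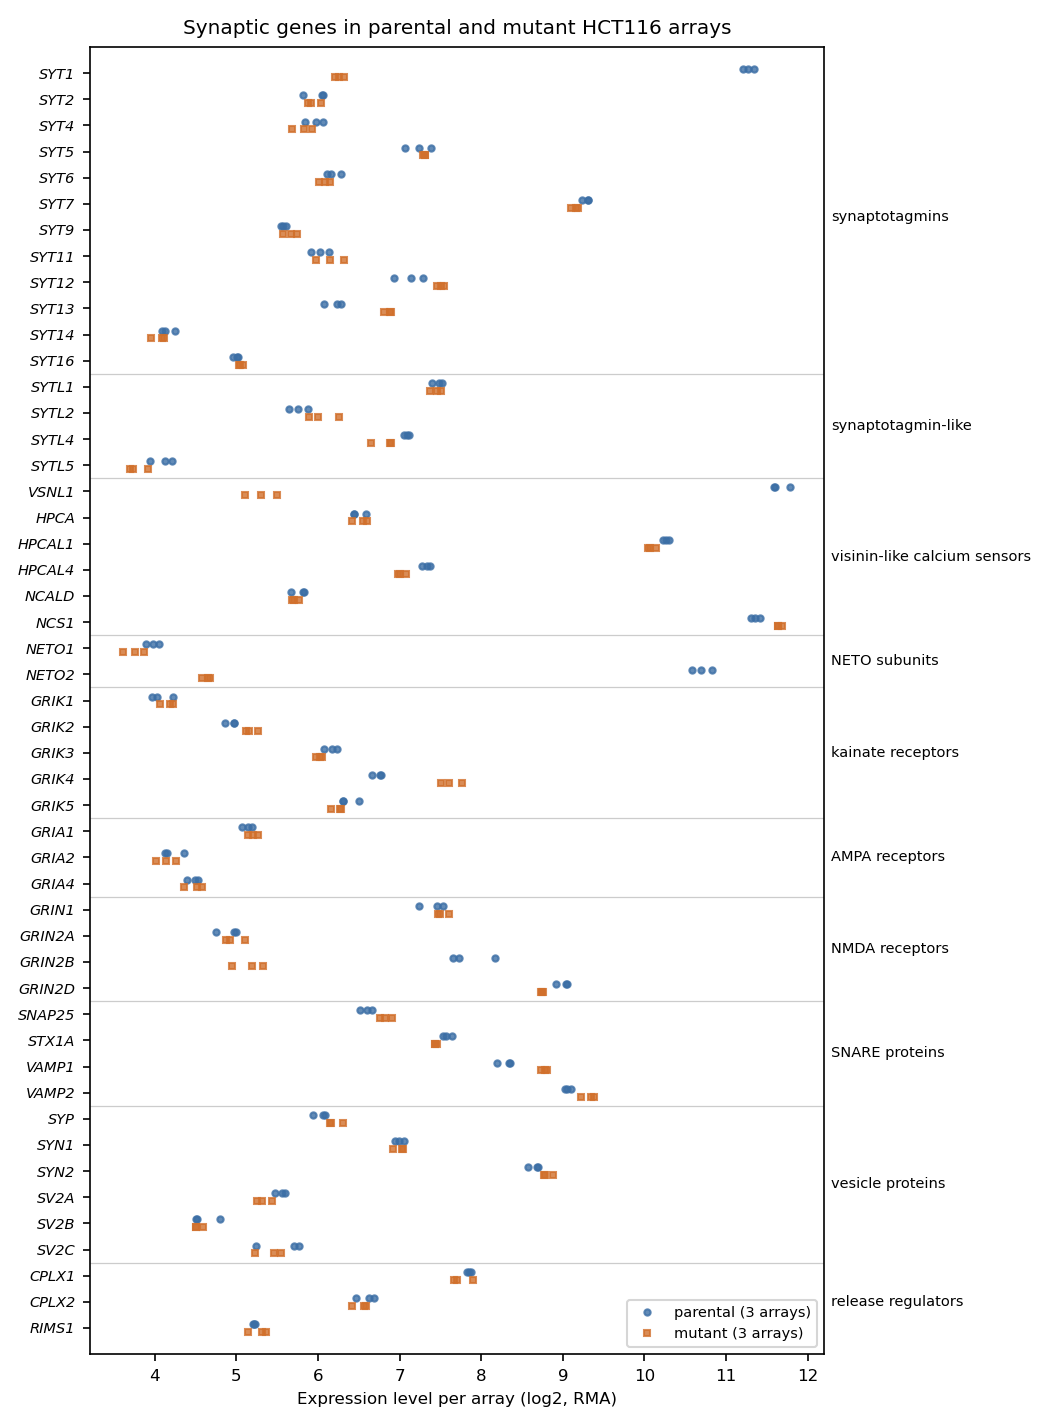
Expression level of each of the 49 genes in every array (x axis, log2 RMA value), with 3 parental arrays as circles and 3 mutant arrays as squares, grouped by role. SYT1, VSNL1 and NETO2 differ in mean by -5.01, -6.36 and -6.07 and GRIN2B by -2.69, while the other genes differ less, GRIK4 (0.89) the most. The groups do not overlap for 27 of the 49 genes, against 45.8% of all genes.

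Of the 6 visinin-like sensors 2 fell, 1 rose and 3 did not pass. VSNL1 encodes visinin-like protein 1, a sensor known from neurons that acts on guanylyl cyclase and receptor trafficking. Its probe set (8040430) read 11.59, 11.60 and 11.79 in parental arrays and 5.31, 5.50 and 5.11 in mutant arrays. All mutant arrays lie over 6 units below all parental ones. The means were 11.66 ± 0.11 and 5.30 ± 0.19 (log2 ± SD, n = 3 each), a difference of -6.36 (limma adjusted p = 3.84e-06), or 81.9-fold.

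Its relatives did not share a change of that size. HPCAL4 fell by 0.31, from 7.33 ± 0.05 to 7.02 ± 0.05 (log2 ± SD, n = 3 each; limma adjusted p = 0.011). NCS1, the widely expressed neuronal calcium sensor 1, which regulates phosphatidylinositol 4-kinase, rose by 0.30, from 11.36 ± 0.05 to 11.66 ± 0.03 (log2 ± SD, n = 3 each; limma adjusted p = 0.0105). HPCAL1, a close homologue of hippocalcin, read 10.23, 10.26 and 10.30 in parental and 10.04, 10.07 and 10.14 in mutant arrays, a difference of -0.18 that did not pass (limma adjusted p = 0.0629) but passed in 6 of 17 alternatives. Hippocalcin itself, HPCA, and neurocalcin, NCALD, differed by 0.03 and -0.05, with groups that overlap.

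NCS1 lies on chromosome 9 among genes that were often higher. Of the 20 measured genes nearest to it, 12 were called higher and 0 lower, with a median difference of 0.38. The shares over all genes were 14.6% higher and 11.3% lower. GRIN1, also on chromosome 9, did not pass (0.12, limma adjusted p = 0.467), in a stretch where 9 of 20 neighbours were higher and 0 lower. The part of these stretches in the difference of NCS1 was not tested.

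Of the 4 SNARE proteins 2 were higher, by small amounts, and 0 lower. VAMP1, a vesicle SNARE prominent in motor terminals, read 8.35, 8.20 and 8.34 in parental and 8.73, 8.78 and 8.81 in mutant arrays. It rose by 0.48 (limma adjusted p = 0.00351), and the groups do not overlap. VAMP2, the main vesicle SNARE of brain synapses, rose by 0.25, from 9.06 ± 0.04 to 9.31 ± 0.09 (log2 ± SD, n = 3 each; limma adjusted p = 0.0369). That call was lost without parental replicate 1, 2 or 3 (limma adjusted p = 0.0978, 0.0815 and 0.107) and without mutant replicate 2 or 3 (0.12 and 0.106). SNAP25, the plasma membrane SNARE of neurons, differed by 0.24 (limma adjusted p = 0.0547), and syntaxin 1A, STX1A, by -0.14 (0.129), both with groups that do not overlap.

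Limma called 0 of 6 vesicle proteins and 0 of 3 release regulators, of which 3 (SYP, SYN2 and SV2A) and 0 had an unadjusted p under 0.05. Synaptophysin, SYP, an abundant membrane protein of synaptic vesicles, differed by 0.18. SYN1 and SYN2, synapsins that tether vesicles to one another and to actin, differed by 0.0001 and 0.16. The vesicle glycoproteins SV2A, SV2B and SV2C, of which SV2A binds the drug levetiracetam, differed by -0.21, -0.08 and -0.17. The 95% intervals of the 6 differences stayed between -0.55 and 0.34, the widest being that of SV2C. CPLX1, CPLX2 and RIMS1 differed by -0.09, -0.07 and 0.06. Their intervals stayed between -0.27 and 0.22.

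The NETO subunits were measured as a pair of paralogs with unlike outcomes. NETO2 (probe set 8001197) read 10.69, 10.59 and 10.83 in parental arrays and 4.57, 4.68 and 4.65 in mutant arrays. The mutant arrays are tightly grouped in the low range of the array, over 5 units below any parental array. The means were 10.70 ± 0.12 and 4.63 ± 0.06 (log2 ± SD, n = 3 each), a difference of -6.07 (limma adjusted p = 7.39e-07), or 67.1-fold. NETO1 read 3.89, 4.05 and 3.97 in parental and 3.87, 3.61 and 3.75 in mutant arrays, low throughout. Its difference of -0.23 did not pass (limma adjusted p = 0.123).

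Of the kainate receptor subunits, the receptors that NETO proteins accompany, 2 of 5 rose and 0 fell, against 14.6% called higher over all genes. The call of GRIK2 was lost in 9 of 16 alternatives. GRIK4 encodes the high-affinity subunit GluK4, which needs a partner from GRIK1, GRIK2 or GRIK3 to form a channel. It read 6.66, 6.77 and 6.76 in parental and 7.51, 7.76 and 7.60 in mutant arrays, with no overlap. The rise from 6.73 ± 0.06 to 7.62 ± 0.12 (log2 ± SD, n = 3 each) was 0.89 (limma adjusted p = 0.000757), or 1.86-fold.

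Among the possible partners, GRIK2, the pore-forming subunit GluK2, read 4.97, 4.97 and 4.86 in parental and 5.27, 5.12 and 5.16 in mutant arrays, a rise of 0.25 (limma adjusted p = 0.0426). These values are in the low range of the array, and the call was lost when any 1 of the 6 arrays was left out, with limma adjusted p-values of 0.0789, 0.0965 and 0.115 without parental replicates 1, 2 and 3 and of 0.111, 0.0744 and 0.0903 without mutant replicates 1, 2 and 3. It was also lost with an intensity trend in the variance model (0.12). GRIK1, GRIK3 and GRIK5 differed by 0.08, -0.14 and -0.13 and did not pass.

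The AMPA receptor subunits GRIA1, GRIA2 and GRIA4, which carry fast excitatory transmission, had 0 of 3 called by limma and 0 with an unadjusted p under 0.05. Their values lay between 4.02 and 5.26 in all 6 arrays, the groups overlap, and the differences were 0.07, -0.07 and 0.01. The 95% intervals stayed between -0.29 and 0.22.

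Of the 4 NMDA receptor subunits 2 fell. GRIN2B, the glutamate-binding subunit GluN2B that dominates in the developing brain, read 7.65, 7.73 and 8.17 in parental arrays and 5.33, 5.19 and 4.95 in mutant arrays. The groups are more than 2 units apart. The means were 7.85 ± 0.28 and 5.16 ± 0.19 (log2 ± SD, n = 3 each), a difference of -2.69 (limma adjusted p = 0.000241), or 6.48-fold.

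GRIN2D, the subunit GluN2D known from embryonic tissue and interneurons, fell by 0.26, from 9.01 ± 0.07 to 8.74 ± 0.01 (log2 ± SD, n = 3 each; limma adjusted p = 0.0217). The call was lost without parental replicate 1 or 2 (limma adjusted p = 0.0677 and 0.0842) and without mutant replicate 1, 2 or 3 (0.0695, 0.0688 and 0.0662). GRIN1, the glycine-binding subunit present in every NMDA receptor, and GRIN2A differed by 0.12 and 0.06 and did not pass.

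**Figure D2:**
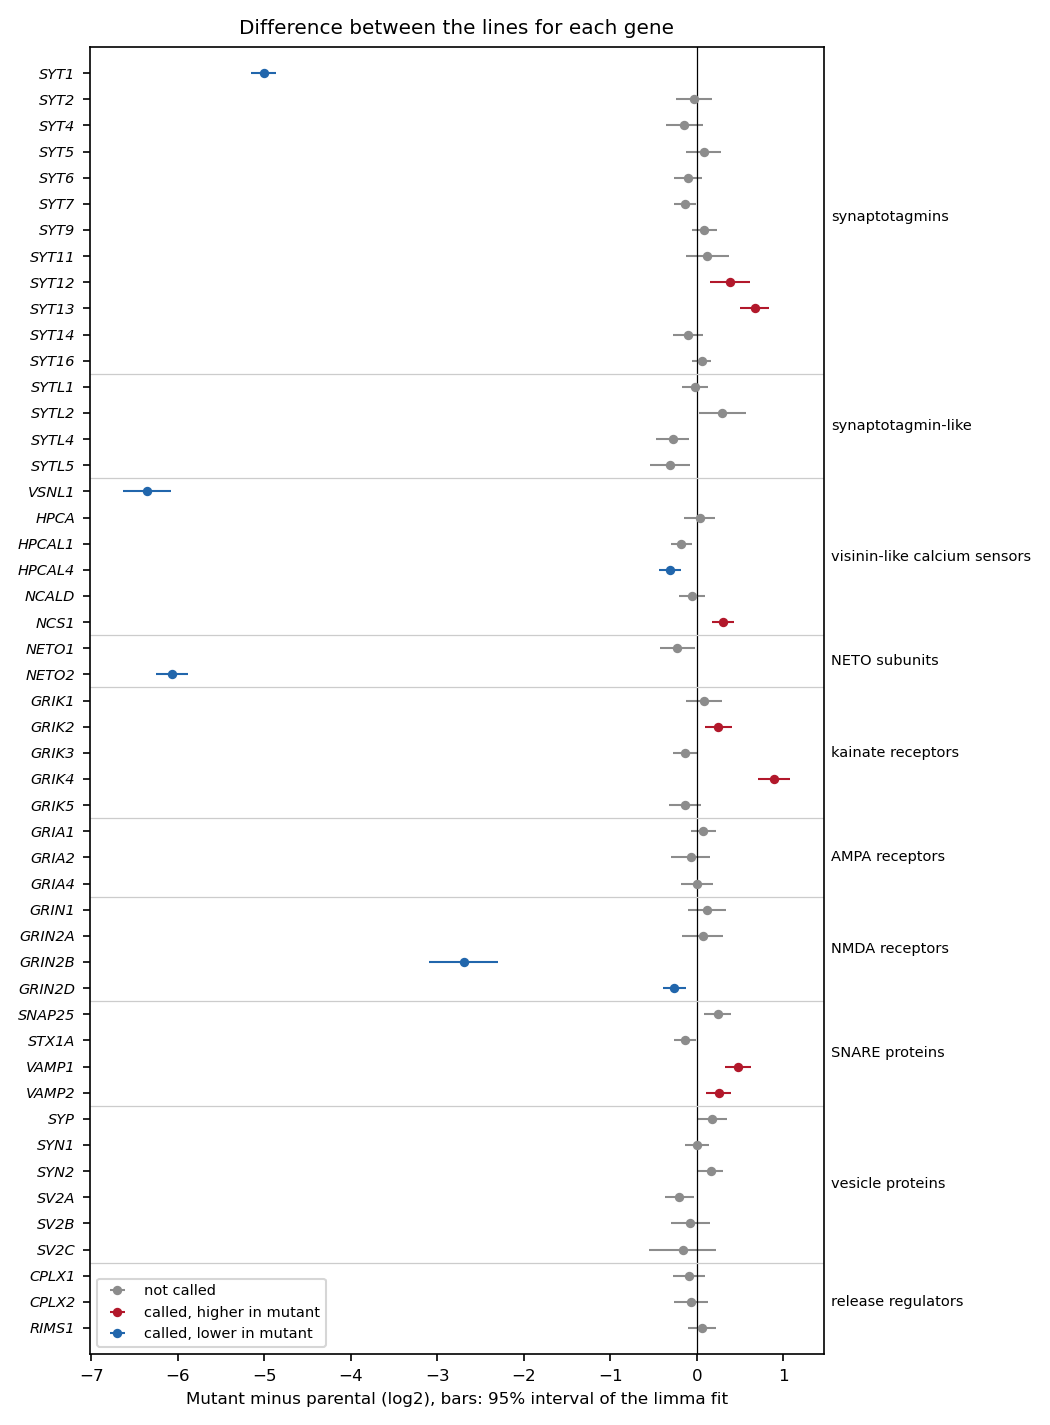
Mutant minus parental difference (x axis, log2) of each of the 49 genes, with the 95% interval of the limma fit, not adjusted for the number of genes, and colours for genes called higher, lower or neither. The 36 genes that were not called lie between -0.31 and 0.29, while VSNL1, NETO2, SYT1 and GRIN2B lie at -6.36, -6.07, -5.01 and -2.69.

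Of the 36 genes that did not pass, 11 had an unadjusted limma p under 0.05. The 36 differences ran from -0.31 to 0.29, and the outermost bounds of their 95% intervals were -0.55 and 0.57. Many of these genes read low in both lines, where robust multi-array averaging compresses differences. Of the 49 genes, 20 had a parental mean above the median of all probe sets (6.90). Of those 20 genes 10 were called, against 36.0% of all genes above that median. Of the 29 at or below it 3 were called, SYT13, GRIK2 and GRIK4, all higher, against 9.5% of all genes at or below it. VSNL1, NETO2, SYT1 and GRIN2B moved from above the median in all 3 parental arrays to below it in all 3 mutant arrays, where such compression applies to their fold values.

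The other genes of the pathway went both ways. Their counts are to be read beside the 14.6% called higher and 11.3% called lower over all genes. Of 21 further SNARE and fusion genes 3 rose and 5 fell. STXBP6, which encodes amisyn, a binder of syntaxin, rose by 1.44, from a low mean of 5.05 to 6.49 (limma adjusted p = 0.000468). NAPG, an adaptor of the SNARE-disassembling ATPase, fell by 1.45 on the log2 scale (limma adjusted p = 7.6e-05). STXBP3 and SNAP29 rose by 0.42 and 0.23, and STX7 and STX8, endosomal syntaxins, changed by -0.44 and -0.36. Of 13 further synaptotagmin-family genes 2 rose and 1, SYTL3, fell. The 2 were DOC2A (0.74), a calcium sensor of spontaneous and asynchronous release, and ESYT1 (0.31), which tethers the endoplasmic reticulum to the plasma membrane.

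Of 36 further vesicle and active zone genes 4 rose and 6 fell. RIMS2, a paralog of RIMS1, rose by 0.94, from a low mean of 5.40 to 6.34 (limma adjusted p = 0.000185). The priming factor UNC13B rose by 0.69 and SLC17A7, a vesicular glutamate transporter, by 0.51. RAB3A, the main GTPase of synaptic vesicles, changed by -0.62 (limma adjusted p = 0.000547), SYNGR2 by -0.51 and UNC13A by -0.38. Of 17 further EF-hand sensors 2 rose, KCNIP3 (0.60), a potassium channel partner, and the buffer CALB1 (0.32), and 2 fell, CALB2 (-0.28) and CHP1 (-0.18). CALB1 averaged 4.32 in parental and 4.64 in mutant arrays, in the low range of the array.

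Of 35 further glutamate receptors and receptor partners 8 rose and 1 fell, with a median difference of 0.10. Over all genes 14.6% were called higher and 11.3% lower, with a median difference of 0.0034, and no test of the list was run. CNIH2, an auxiliary subunit of AMPA receptors, rose by 1.08 (limma adjusted p = 0.000169), CACNG7, another AMPA receptor partner, by 0.60, and the scaffold DLG4 by 0.52. The scaffold HOMER1 changed by -0.41 (limma adjusted p = 0.0103). Of 12 genes of glutamate transport and metabolism 2 rose and 3 fell. The glutamate transporter SLC1A3 rose by 1.09 (limma adjusted p = 0.000173), and the glutamine transporter SLC1A5 changed by -0.63 (0.000741). GLUL, glutamine synthetase, rose by 0.22, and the transporters SLC1A1 and SLC1A4 changed by -0.54 and -0.37.

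REST, the repressor of many neuronal genes outside the nervous system, differed by 0.12 (limma adjusted p = 0.201). Of the 11 genes of the list of REST and its corepressors 3 rose and 3 fell. All 11 lay above the array median in parental cells, where 36.0% of all genes were called in either direction. RCOR3, RCOR2 and the demethylase KDM1A rose by 0.45, 0.41 and 0.20, and the deacetylases HDAC1 and HDAC2 and L3MBTL3 changed by -0.65, -0.29 and -0.31.

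**Figure D3:**
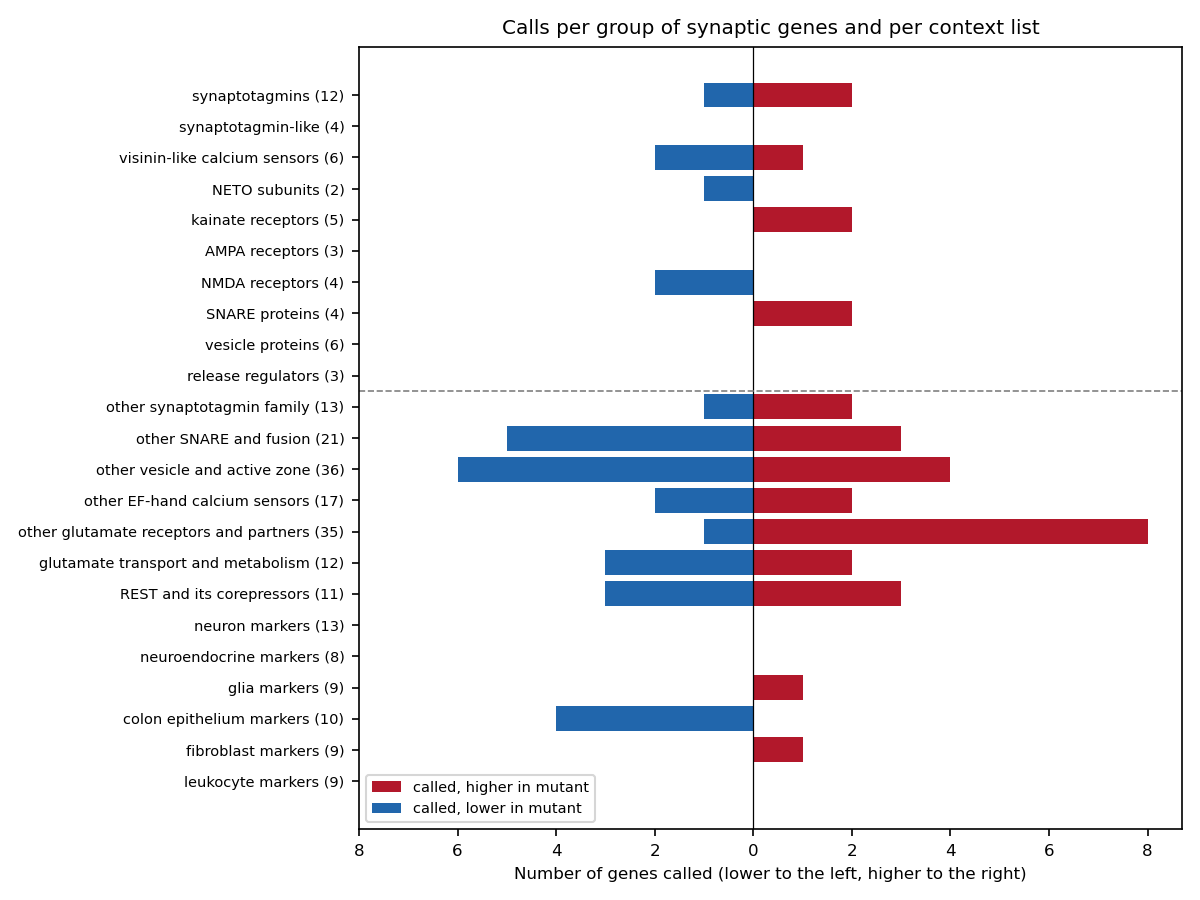
Number of genes called higher (to the right) or lower (to the left) in the mutant for the 10 role groups of the set, above the dashed line, and for 13 context lists, below it, with the number measured in parentheses. Further glutamate receptors and partners had 8 higher and 1 lower, while neuron and neuroendocrine markers, most of them dim, had none called. Over all genes 14.6% were called higher and 11.3% lower. Of genes at or below the array median in parental cells 9.5% were called in either direction.

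Markers of neurons and neuroendocrine cells were not called. Of 13 neuron markers, with MAP2, STMN2, ELAVL4 and DCX among them, 0 rose and 0 fell, and of 8 neuroendocrine markers, with CHGA and SCG2, also 0 and 0. Only 2 of the neuron and 3 of the neuroendocrine markers lay above the array median in parental cells. Over all genes 25.9% were called, but only 9.5% of those at or below that median, so an absence of calls says little about these lists. Before adjustment, 1 of the neuron and 0 of the neuroendocrine markers had a limma p under 0.05. In limma, MAP2 had the lowest adjusted p of these lists, 0.0513, with a difference of 0.26. The summed log2 level of the neuron markers was 78.6 to 80.9 in the parental and 79.5 to 79.7 in the mutant arrays. For the neuroendocrine markers it was 48.9 to 49.9 and 49.3 to 49.6. Of 9 glia markers 1 rose, SLC1A3, of 9 fibroblast markers 1 rose, PDGFRB (0.27), and of 9 leukocyte markers 0 rose and 0 fell, with 1 at an unadjusted limma p under 0.05.

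The epithelial identity of the line was checked with 10 colon epithelium markers. EPCAM read 12.15 in parental and 12.33 in mutant arrays on average and KRT8 13.32 and 12.79, whereas KRT20 and VIL1, markers of differentiated cells, read 5.87 and 5.76 in parental arrays. Of the 10 markers 0 rose and 4 fell, CDH1 (-1.36), KRT18 (-0.88), KRT8 (-0.53) and KRT19 (-0.47). In parental cells 8 of the 10 lay above the array median, where 36.0% of all genes were called in either direction. The share called lower over all genes was 11.3%. The summed log2 level was 94.97 to 95.07 in parental and 91.24 to 92.35 in mutant arrays, with a median difference of -0.07 over the 10 markers. The other 6 did not pass, with EPCAM at 0.18. The part of the 4 lower markers in the decreases of VSNL1, NETO2, SYT1 and GRIN2B was not tested.

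The genes that lie beside the large decreases went both ways. Their counts are to be read beside 14.6% called higher and 11.3% called lower over all genes, and the neighbours were not tested as a group. Of the 20 measured genes nearest to VSNL1 in RefSeq order, 3 were higher and 5 lower, with a median difference of -0.06. Around NETO2 2 were higher and 2 lower, with a median of -0.0082, around SYT1 5 and 4, with -0.02, and around GRIN2B 1 and 4, with -0.0067. The next measured gene on at least one side of 3 of them was lower as well. NAV3, beside SYT1, changed by -1.71 (limma adjusted p = 0.000548), CYRIA, beside VSNL1, by -0.91 (0.00364), and DNAJA2, beside NETO2, by -0.72. On the other side SMC6, beside VSNL1, rose by 0.31, PAWR, beside SYT1, changed by -0.27, and ITFG1, beside NETO2, differed by -0.09 and did not pass. These neighbours were chosen by position, and singled out after their values were seen.

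**Figure D4:**
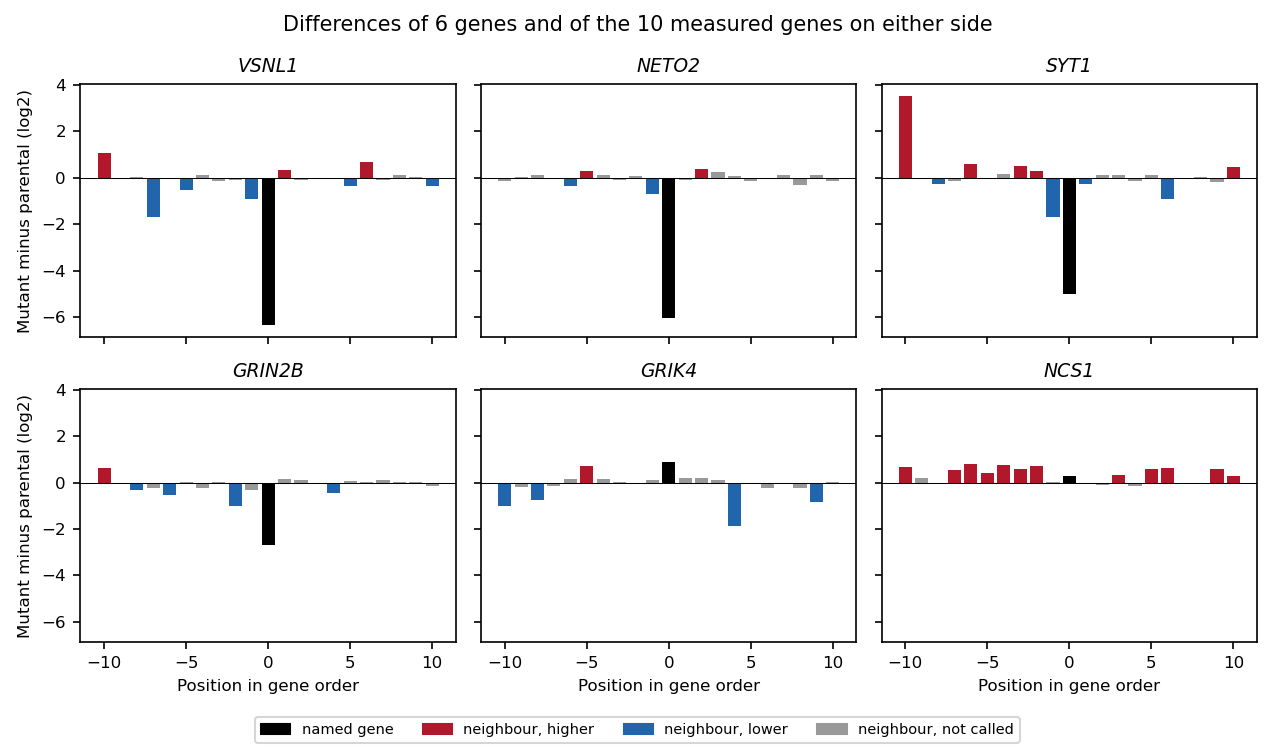
Mutant minus parental difference (y axis, log2) of VSNL1, NETO2, SYT1, GRIN2B, GRIK4 and NCS1 (black, position 0) and of the 10 measured genes on either side in chromosomal order (x axis, number of measured genes away). The neighbours of the 4 genes that fell went both ways, with NAV3 (-1.71) next to SYT1 and GLIPR1 (3.52) at the edge of its window. NCS1 sits among 12 neighbours called higher and 0 called lower, against 14.6% and 11.3% of all genes.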

How the data were processed

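Total RNA (100 ng, biotin-labelled) of 3 parental and 3 mutant HCT116 samples was hybridised to Affymetrix whole-transcript arrays, per the labels' protocols. The deposited values are log2 expression levels, which the authors made with Partek software and RMA, as the submitters' processing notes name them. Their versions are not given in the sources, nor is a genome build. RMA brings the distributions of the arrays close to one another and compresses low values. Array medians lay between 6.88 and 6.93. Precision is limited by how few arrays there are.

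Of 33297 probe sets, 19460 have 1 gene symbol in the platform annotation, 1754 several and 12083 none. These gave 18417 genes, and no probe set of the 49 has identical values to another. Every probe set was tested two-sided by lmFit and eBayes of limma 3.58.1, with no covariates, in R 4.3.3. Benjamini-Hochberg adjustment covered every probe set, and genes with an adjusted p below 0.05 were called. The 95% intervals use the moderated standard error. The fit was tested on simulated data. Python 3.11.15 with pandas 2.3.3 and matplotlib 3.10.9 did the rest.

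The members and lists were chosen with earlier results of these data known. Of 221 genes in 13 context lists 202 were measured. All 49 members are accounted for. Every array is given for called members of at least 1.5-fold, and up to 3 called genes per direction are named from each list. Arrays given for other members, the uncalled genes named in the lists, KRT19, called beside the 3 named epithelial markers, and the neighbours were chosen after their values were seen. RefSeq (GRCh38.p14) supplied promoter windows and gene order. Alternatives covered normalization, filters on dim probe sets, the variance model, array weights, the replicate block, a minimum fold of 1.2, averaging a gene's probe sets and each array left out. The testing of identical probe sets once was added after the data were seen. Whether the arrays of a group came from separate cultures is not stated, so the p-values reflect a spread between samples that may be technical only.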

Additional observations from a re-analysis of the deposited data

How the results depend on the processing

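Across 17 alternatives 0 calls of the 49 genes reversed direction, and 6 of the 13 called genes, VSNL1, NETO2, SYT1, GRIN2B, GRIK4 and SYT13, kept their call wherever they were tested. The count of genes lower in the mutant was 6 as reported and 10 with a gene's probe sets averaged, which tests fewer rows. The count of genes higher was 7 as reported, 2 with a minimum fold of 1.2, which is stricter by construction, and 4 with the replicate number as a block. Genes higher by 1.5-fold were 2 as reported and 1 among probe sets with a mean of at least the median, a filter that removes SYT13. With 1 array left out at a time there were 4 to 5 genes higher and 5 to 7 lower, with 2 higher and 4 lower by 1.5-fold each time and a median difference of -0.04 to 0.0003. Deviations of same-numbered arrays correlated at 0.04, -0.01 and 0.0027, and those of arrays with unlike numbers at -0.06 to 0.06. These values give no sign of pairing but cannot exclude it. Under the block GRIK2, GRIN2D, HPCAL4, SYT12 and VAMP2 lost their calls, with limma adjusted p-values of 0.0772, 0.0623, 0.0566, 0.0657 and 0.0748. With the minimum fold of 1.2 NCS1 and VAMP1 lost theirs too. Of the genes not called, 8 passed in at least 1 alternative. Low values limit what can be seen for genes such as NETO1, GRIK1 and GRIA2, and no table used here marks background probe sets.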
